A study of Sus scrofa with 6 samples.

Results

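Apelin, vascular endothelial growth factor (VEGF) and the angiopoietins are the secreted signals of 3 related systems that act on blood vessels, and 10 of their ligand and receptor genes were followed here in pig prefrontal cortex. The genes were chosen from a result of these libraries and from family membership. APLN, the apelin gene, was selected on its higher values in VPA libraries, so its difference between the groups is given as a description with no test. The other 9 genes were taken as its receptor and as ligands and receptors of neighbouring angiogenic systems, with earlier results of these data known. Of the 10 genes, 9 had a row among the 17201 genes listed in the count files, and all 9 passed the filter on low counts. APLNR, the apelin receptor gene, was not analysed here.

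The study compared the prefrontal cortex of pigs (Sus scrofa) aged 3 months, as RNA sequenced from whole tissue. The VPA group comprised 3 animals, numbered 391, 392 and 393, whose exposure to valproic acid (VPA, 75 mg/kg) fell in early gestation. The control group of 3 animals, numbered 401, 402 and 408, is labelled as untreated. VPA, an anticonvulsant, inhibits histone deacetylases, and the series presents the exposed animals as a pig model of autism. Not given in the sources used here: litter, sex and the route of exposure.

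As background, apelin is a small secreted peptide that acts through a G protein-coupled receptor, and it is made by sprouting endothelial cells and, in brain, also by neurons. VEGFA drives vessel growth through the receptor tyrosine kinase encoded by KDR, while the receptor encoded by FLT1 binds VEGFA tightly and also occurs as a soluble form that holds the ligand back. The angiopoietins bind the receptor TEK (also called TIE2), with ANGPT1 a steady agonist from cells around vessels and ANGPT2 a product of endothelial cells that often opposes it.

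Library totals ran from 16285517 to 17989032 counts, so that 1 CPM, a count scaled to a library total of 1000000, stood for 16.3 to 18.0 reads. Of 14373 genes tested in edgeR's quasi-likelihood test, 52 (0.362%) passed a Benjamini-Hochberg adjusted p of 0.05 and are termed called. In VPA 393 the summed CPM of 10 markers of projection neurons of the striatum, a region beneath the cortex, was 604, against 195 and 216 in the other VPA animals and 159 to 185 in controls. The Y-linked gene EIF1AY had 450 to 548 counts in 4 libraries, but 0 in VPA 392 and 2 in control 401.

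APLN stood higher in every VPA library than in any control. Its 3 VPA values were 31.5 (animal 391), 34.5 (392) and 33.0 CPM (393), against 20.6 in control 401, 17.1 in control 402 and 14.0 in control 408. The VPA animals lay close together, with a coefficient of variation of 4.55%, and the controls were spread over a coefficient of variation of 19.1%. The lowest VPA library had 1.53 times the CPM of the highest control. The group means were 33.0 ± 1.50 CPM in VPA and 17.3 ± 3.29 CPM in controls (SD, n = 3 each), and the edgeR log2 fold change was 0.92, or 1.90-fold. Groups of this kind, with all VPA libraries above all controls, were found for 12.1% of the tested genes. A larger absolute log2 fold change than that of APLN was found for 1.11% of them.

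**Figure D1:**
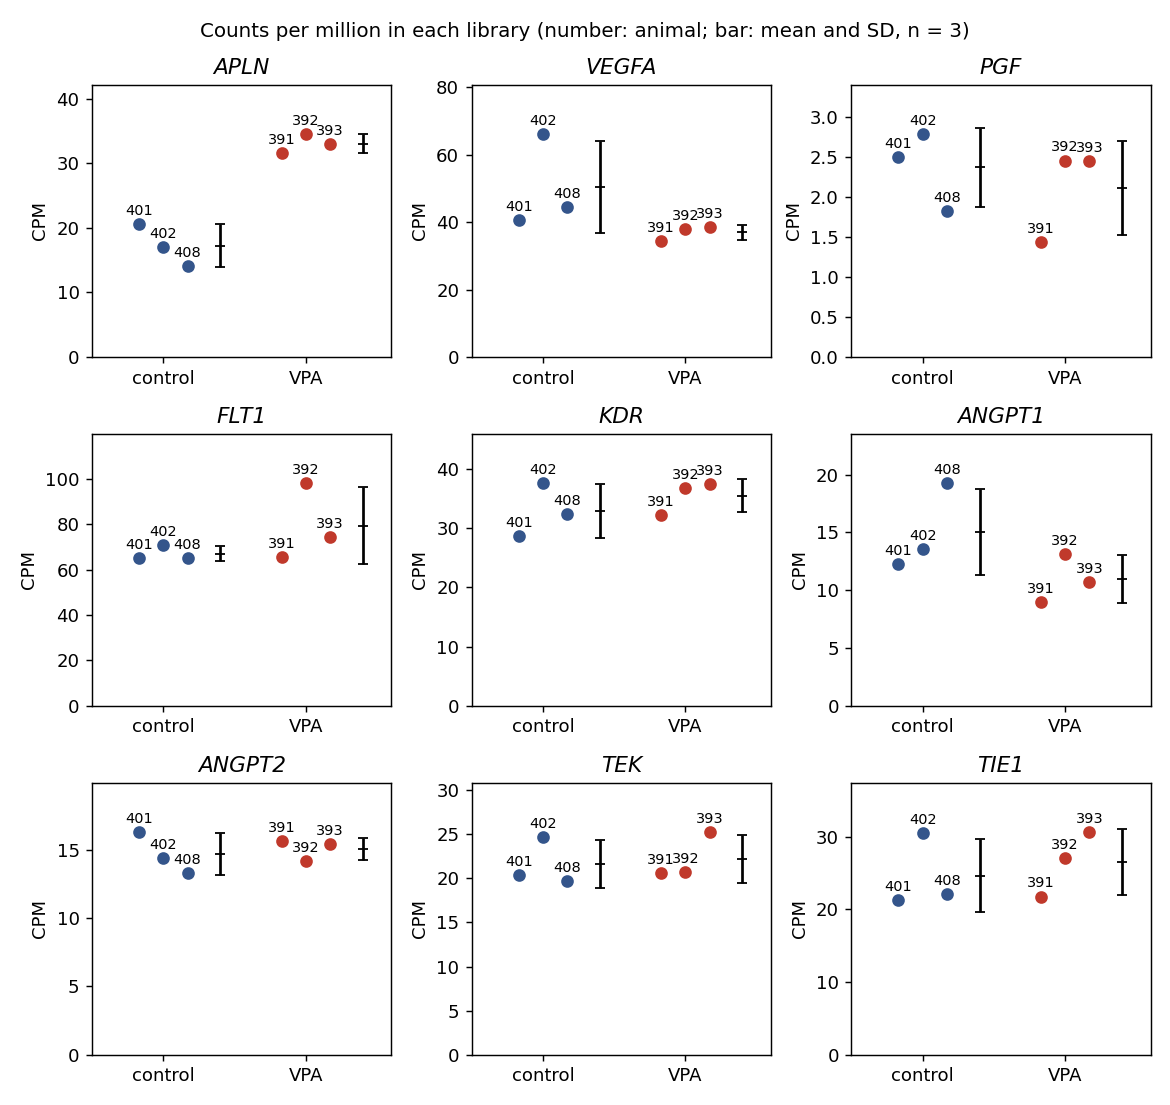
CPM (vertical axes, from 0) of the 9 measured member genes in each library, with the animal number at each point and the mean and SD of the 3 libraries of a group beside it. APLN (31.5 to 34.5 CPM in VPA, 14.0 to 20.6 in controls) and VEGFA (34.3 to 38.5 in VPA, 40.7 to 66.1 in controls) are the panels whose groups do not overlap.

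Because the difference in these libraries chose APLN, its values with libraries left out describe that difference further and lend it no support. With each library left out in turn, the log2 fold change ran from 0.80 (without control 408) to 1.06 (without control 401). It was 0.93 without VPA 393, the library with high striatal markers. APLN is an X-linked gene, and in each group it was highest in the animal that had at most 2 EIF1AY counts, VPA 392 and control 401. With EIF1AY as a covariate the log2 fold change was 0.92, and it was 1.03 over the 4 libraries with EIF1AY counts, a choice made after seeing the data.

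Other genes of the apelin system were thinly expressed or not called. APELA, which encodes the second ligand of the apelin receptor, had 0 to 3 counts per library and was not tested. FURIN, a protease that cleaves precursor proteins such as proapelin, had 57.8 ± 4.34 CPM in the VPA group and 58.8 ± 1.21 in controls (SD, n = 3 each; edgeR adjusted p = 0.84). MME, which encodes the peptidase neprilysin, had 6.67 CPM in VPA 393 and 3.13 to 4.27 in the other 5 libraries (adjusted p = 0.73). FURIN and MME were tested, and neither was called.

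Genes that ran most like APLN from library to library were found by Pearson's r of log2 CPM over the 6 libraries, among 13081 named genes with a mean of at least 1 CPM. The closest were NWD1 (r = 0.998), the intermediate filament gene VIM (0.996), METRN (0.995), ATAD2 (0.994) and FLNA (0.994), which encodes filamin A. NWD1 had 13.8, 13.9 and 13.9 CPM in VPA 391, 392 and 393 and 8.56, 7.00 and 5.80 in controls 401, 402 and 408. The order of the controls in NWD1 was thus that of APLN. As the group difference of APLN enters these values, the likeness was also taken after removing the group means, where CCNL2 (0.998), TMEM173 (0.996), SOX1 (0.992) and COL4A5 (0.992) were among the closest. FLNA and COL4A5 are, like APLN, X-linked. With group means removed, most of the variation left in APLN was among the 3 controls (coefficient of variation 19.1%, against 4.55% in VPA). With at most 6 points and many candidate genes these are descriptions and carry no p.

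None of the 8 other member genes was called in edgeR, against 0.362% of all tested genes. At an unadjusted p of 0.05 edgeR had 2 of the 8, VEGFA and ANGPT1, against 16.1% of all tested genes. DESeq2 called 1 of them, VEGFA, against 3.14% of the genes to which it gave an adjusted p, and limma-voom 0, against 0.209%. Their log2 fold changes were positive in 5 and negative in 3, with a median of 0.03, against 0.0018 over all tested genes. Groups that did not overlap were found in 1 of the 8, VEGFA, and in 21.2% of all tested genes.

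**Figure D2:**
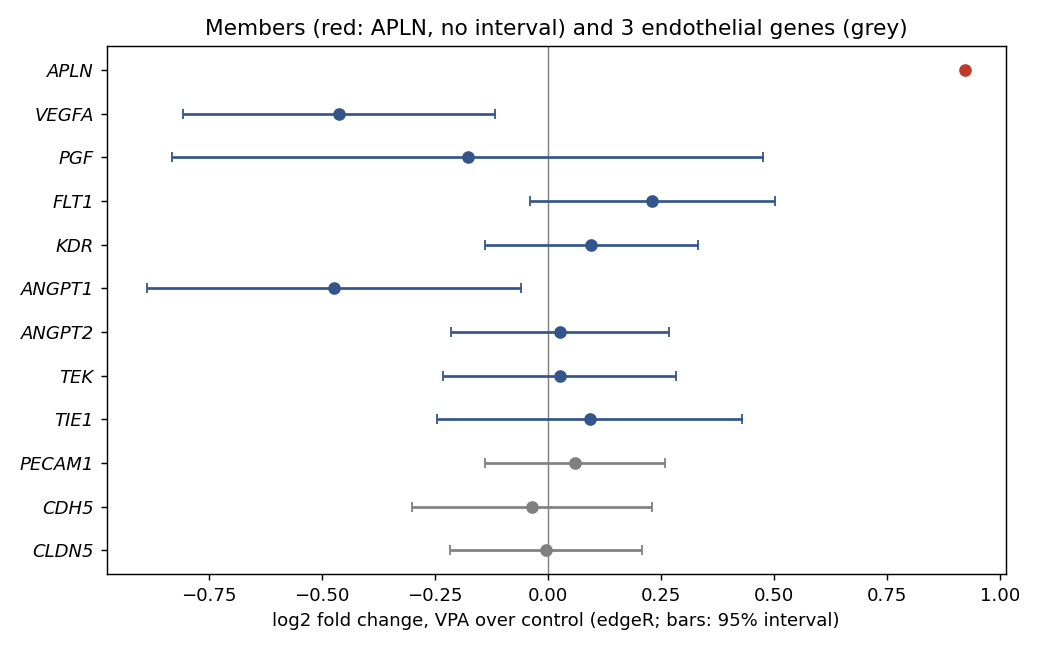
Log2 fold change of VPA over control from edgeR (horizontal axis) for the 9 members and, in grey, the endothelial genes PECAM1, CDH5 and CLDN5, with 95% intervals as bars except for APLN, which was chosen by this difference. APLN lies at 0.92, the intervals of VEGFA and ANGPT1 lie below 0 before adjustment, and those of the other 6 members span 0.

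VEGFA, the main vessel growth factor, was lower in VPA cortex in all 3 animals, by an amount that did not pass over all genes. The 3 VPA libraries had 34.3 (391), 38.1 (392) and 38.5 CPM (393), and the controls 40.7 in control 401, 66.1 in control 402 and 44.5 in control 408. Control 402 stood apart from the other controls, and all VPA libraries lay below all controls, as they did for 9.07% of the tested genes. The log2 fold change was -0.46 ± 0.16 (SE; 95% interval -0.81 to -0.12, edgeR adjusted p = 0.18), with 36.9 ± 2.33 CPM in VPA and 50.4 ± 13.7 in controls (SD, n = 3 each). DESeq2 gave a log2 fold change of -0.47 with an adjusted p of 0.039. Over all 18 alternatives the adjusted p of VEGFA ran from 0.039 to 0.37. Without control 402 the edgeR log2 fold change was -0.22.

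Many hypoxia-induced genes were likewise highest in control 402. Hypoxia induces VEGFA and genes of glucose transport and glycolysis through the factors HIF1A and EPAS1. Of 23 tested hypoxia-induced genes other than VEGFA, 10 had their highest CPM in control 402, a library that was the highest for 15.5% of all tested genes. Among the 10, named after their values were seen, the glucose transporter gene SLC2A3 had 119 CPM there and 86.1 to 107 in the other libraries, and DDIT4, a stress-induced inhibitor of growth signalling, had 46.2 CPM there and 20.3 to 34.4 elsewhere. Red blood cell markers, 6 genes with a row, summed to 210 CPM in control 402, 23.7 in control 401 and 47.8 in control 408, and to 127 to 207 CPM in VPA animals. The part of these differences in the VEGFA values was not tested.

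Between the groups, the 23 hypoxia-induced genes had a median log2 fold change of -0.03, with 9 positive and 14 negative. LDHA, a lactate dehydrogenase subunit, was the 1 called gene among the 23, against 0.362% of all tested genes, and it fell. It had 176, 196 and 196 CPM in VPA 391, 392 and 393 and 242, 240 and 256 CPM in controls 401, 402 and 408 (log2 fold change -0.39 ± 0.053 SE, edgeR adjusted p = 0.040). Here control 402 was the lowest control, unlike in VEGFA. With VEGFA included, the list's median was -0.05, and it was -0.11 without control 401 and 0.00085 without control 402. The change without control 401 exceeded the list's spread between replicates, and that without control 402 did not. CA12, a carbonic anhydrase gene named after its values were seen, had 6.56 CPM in VPA 393 and 1.07 to 2.95 in the other libraries. In the list of hypoxia-sensing genes, 7 of 9 had positive fold changes and 0 were called by edgeR or DESeq2. At an unadjusted p of 0.05 edgeR had 3 of the 9, against 16.1% of all tested genes. Over all genes edgeR called 0.362% and DESeq2 3.14%. The lowest p values belonged to EGLN3, an oxygen-dependent prolyl hydroxylase (0.29 ± 0.084 SE, adjusted p = 0.13), and ARNT2, a partner of the HIF proteins (0.16 ± 0.056, adjusted p = 0.20). HIF1A itself averaged 87.0 ± 8.72 CPM under VPA and 89.3 ± 2.09 in control animals (adjusted p = 0.78).

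PGF, placental growth factor, binds FLT1 but not KDR and was the member with the fewest reads. Its values were 1.44 (animal 391), 2.46 (392) and 2.45 CPM (393) in the VPA group, and 2.50 in control 401, 2.79 in control 402 and 1.82 in control 408. These rest on 24 to 47 counts, for which counting error alone is 20.4% to 14.6%. The groups overlapped, and the log2 fold change was -0.18 with a 95% interval from -0.83 to 0.48 (edgeR adjusted p = 0.82). A difference of up to 1.39-fold in 1 direction and 0.563-fold in the other lies inside that interval.

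FLT1, the VEGF receptor with the most reads, was high in 1 VPA animal. The VPA animals had 65.5 (391), 98.3 (392) and 74.3 CPM (393), and the controls 65.2 in control 401, 70.8 in control 402 and 65.0 in control 408. The controls lay close together and VPA 391 lay among them. The log2 fold change was 0.23 ± 0.12 (SE; 95% interval -0.040 to 0.50, edgeR adjusted p = 0.39), and it was 0.05 without VPA 392. Counts are per gene, so membrane and soluble forms of the receptor cannot be told apart.

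KDR, the main signalling receptor for VEGFA, differed less between the groups than among the controls. Its values were 32.3, 36.8 and 37.4 CPM in VPA 391, 392 and 393 and 28.6, 37.7 and 32.4 CPM in controls 401, 402 and 408. Control 402 had the highest value and control 401 the lowest, with the VPA animals between them. The log2 fold change was 0.10 (95% interval -0.14 to 0.33, edgeR adjusted p = 0.71), which bounds a rise at 1.26-fold and a fall at 0.909-fold. Within each library KDR stood at 0.374 to 0.532 times the CPM of FLT1, and was lowest against it in VPA 392. The log2 ratio of KDR to FLT1 averaged -1.14 ± 0.24 in VPA and -1.03 ± 0.14 in controls (SD, n = 3 each; two-sided exact permutation p = 0.60, adjusted over the 4 ratios of 2 members 0.70), in a design of 3 against 3 whose smallest possible p is 0.10.

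The genes most like KDR over the 6 libraries, by the measure used for APLN, were SPATA7 (r = 0.988), DNPEP (0.985), SIGLEC1 (0.980), LMO2 (0.980) and TMEM88 (0.977). With group means removed they were EFL1 (0.992), DNPEP (0.991), CANX (0.991), PRRT4 (0.990) and MYCT1 (0.990). LMO2, a transcription cofactor of blood and endothelial cells, had 25.7, 27.9 and 28.2 CPM in VPA 391, 392 and 393 and 22.3, 28.7 and 24.2 in controls 401, 402 and 408. Its order within each group was that of KDR.

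The rest of the VEGF family held 0 called genes of 6 tested, with 2 positive and 4 negative fold changes. VEGFB, a ligand of FLT1, averaged 58.7 ± 1.81 CPM under VPA and 58.8 ± 4.25 in control animals. FLT4, the receptor for the lymphatic growth factors VEGFC and VEGFD, had a log2 fold change of 0.63 ± 0.31 (SE, edgeR adjusted p = 0.35) at 2.25 ± 0.499 CPM in VPA and 1.44 ± 0.395 in controls. NRP2, a coreceptor of the VEGF and semaphorin systems, had one of 0.19 ± 0.077 (adjusted p = 0.26). None of 23 tested signal transducers of VEGF receptors was called, with 10 positive and 13 negative and a median of -0.04, or -0.0098 without VPA 393 and -0.016 without control 408. The lowest p value among them was that of PRKCB, a protein kinase C gene (-0.24 ± 0.052 SE, adjusted p = 0.073). At an unadjusted p of 0.05 edgeR had 7 of the 23 transducers and 1 of the 6 family genes, against 16.1% of all tested genes. DESeq2 called 4 transducers, among them PRKCB, and 0 family genes, against 3.14% over all genes. The other 3 called by DESeq2, named after their values were seen, were the adaptor gene GAB1, higher in VPA, and the kinase gene MAP2K1 and the phosphoinositide 3-kinase subunit gene PIK3R1, both lower.

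ANGPT1, the agonist of TEK, had a lower mean in VPA with groups that overlapped. The VPA animals had 8.97 (391), 13.1 (392) and 10.7 CPM (393), and the controls 12.3 in control 401, 13.5 in control 402 and 19.3 in control 408. Control 408 was well above the other libraries, and VPA 392 lay above control 401. The log2 fold change was -0.47 ± 0.19 (SE; 95% interval -0.89 to -0.058, edgeR adjusted p = 0.25), and -0.25 without control 408.

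ANGPT2, the context-dependent antagonist, was the steadiest member. It had 15.7, 14.2 and 15.5 CPM in VPA 391, 392 and 393 and 16.3, 14.4 and 13.3 CPM in controls 401, 402 and 408. The highest library had 1.23 times the lowest, against 2.15 times for ANGPT1 and 2.46 times for APLN. Its log2 fold change was 0.028 (95% interval -0.21 to 0.27, edgeR adjusted p = 0.93).

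The balance of the 2 angiopoietins differed from animal to animal. The ratio of ANGPT2 to ANGPT1 in CPM was 1.74 in VPA 391, 1.08 in VPA 392 and 1.44 in VPA 393, and 1.33 in control 401, 1.07 in control 402 and 0.691 in control 408. Control 408 was the library in which ANGPT1 had the higher CPM. The mean log2 ratio was 0.48 ± 0.35 in VPA and -0.010 ± 0.48 in controls (SD, n = 3 each; two-sided exact permutation p = 0.20, adjusted over 4 ratios 0.40).

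TEK and TIE1 encode the paired receptors of the angiopoietins, TIE1 having no well-established ligand of its own. TEK had 20.6, 20.7 and 25.3 CPM in VPA 391, 392 and 393 and 20.4, 24.7 and 19.7 CPM in controls 401, 402 and 408. TIE1 had 21.8, 27.1 and 30.7 CPM in VPA 391, 392 and 393 and 21.3, 30.5 and 22.1 CPM in controls 401, 402 and 408. Both genes were highest in VPA 393 and next highest in control 402, and their groups overlapped. The log2 fold change was 0.027 for TEK (95% interval -0.23 to 0.28, edgeR adjusted p = 0.94) and 0.09 for TIE1 (-0.24 to 0.43, adjusted p = 0.81). The ratio of TEK to TIE1 in CPM lay between 0.764 and 0.956 in all 6 libraries.

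Among the other angiopoietin-related genes, 4 of 6 tested had positive fold changes and 0 were called in edgeR or DESeq2. The shares called over all genes were 0.362% in edgeR and 3.14% in DESeq2. At an unadjusted p of 0.05 edgeR had 1 of the 6, against 16.1% of all tested genes. ANGPTL2, a secreted angiopoietin-like protein that does not bind TEK, had 19.7, 20.1 and 17.8 CPM in VPA 391, 392 and 393 and 13.6, 13.5 and 15.0 CPM in controls 401, 402 and 408. The VPA animals all lay above the controls, but the gene did not pass over all genes (log2 fold change 0.44 ± 0.10 SE, edgeR adjusted p = 0.077). SVEP1, an extracellular matrix protein that binds TIE1, stood at 0.31 ± 0.20 on the log2 scale (adjusted p = 0.50). PTPRB, the endothelial phosphatase that acts on TEK, averaged 64.4 ± 3.51 CPM under VPA and 60.8 ± 3.13 in control animals (adjusted p = 0.66).

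Set per gene length, VEGFA had the highest and PGF the lowest mean level of the 9. Levels between genes are given as FPKM, the authors' counts scaled by gene length and library total. Over the 6 libraries the means were 13.6 ± 3.59 FPKM for VEGFA, 9.22 ± 1.62 for FLT1, 7.90 ± 2.80 for APLN, 5.63 ± 0.602 for KDR and 3.40 ± 0.380 for TEK (SD, n = 6). They were 2.40 ± 0.648 FPKM for ANGPT1, 2.30 ± 0.397 for TIE1, 1.56 ± 0.117 for ANGPT2 and 1.37 ± 0.309 for PGF. KDR lay above TEK, and TIE1 above ANGPT2, in 6 of 6 libraries with ranges that did not overlap. All other neighbours in that order overlapped in their ranges, and ANGPT1 exceeded TIE1 in only 2 of the 6 libraries.

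The place of APLN in the order differed between libraries. It was the second of the 9 in VPA 391 and VPA 393, and the third in VPA 392. In controls it was the third in control 401 and the fourth, below KDR, in controls 402 and 408. Its level per length was 10.4 ± 0.471 FPKM in VPA and 5.42 ± 1.03 in controls (SD, n = 3 each), where KDR had 5.84 ± 0.460 and 5.42 ± 0.747. VEGFA exceeded 67.8% of the tested genes in mean FPKM and PGF 19.0%. The gene lengths behind these values run from 1640 bases for PGF to 11101 bases for TIE1, and another annotation would move a gene's level. VEGFB, the related ligand, had a mean of 49.2 FPKM.

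**Figure D3:**
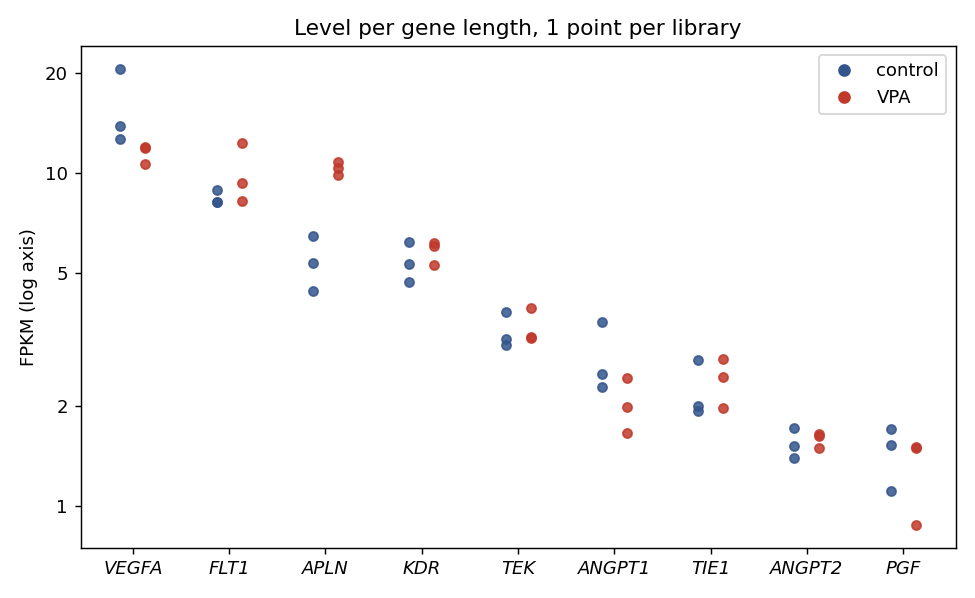
FPKM per library on a log axis for the 9 members, ordered by their mean over all 6 libraries, with controls in blue and VPA animals in red. VEGFA is the highest by mean at 13.6 FPKM and PGF the lowest at 1.37, and APLN shows separate groups, at 9.90 to 10.8 FPKM in VPA and 4.41 to 6.48 in controls.

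Endothelial cells were present in the tissue by their defining genes, and these did not separate the groups. PECAM1 had 36.6 ± 3.90 CPM in VPA and 34.8 ± 2.01 in controls, CDH5 35.8 ± 4.82 and 36.3 ± 4.71, and CLDN5 54.9 ± 7.21 and 54.5 ± 4.06 (SD, n = 3 each; edgeR adjusted p = 0.79, 0.92 and 0.99). Of 15 measured endothelial markers 7 had positive and 8 negative fold changes, with a median of -0.0040, and their summed CPM ran from 447 to 478 in VPA and from 439 to 461 in controls. The lowest p values in the list were those of SLCO1C1, a thyroid hormone transporter of brain vessels (0.27 ± 0.078 SE, adjusted p = 0.13), and ECSCR (0.78 ± 0.30, adjusted p = 0.24). They were the 2 of the 15 with an unadjusted edgeR p under 0.05, against 16.1% of all tested genes. In whole tissue, fewer cells of a type and less RNA per cell cannot be told apart.

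The members were also set against the endothelial markers of the same library. The log2 CPM of APLN minus the mean log2 CPM of the 15 markers was 0.84, 0.74 and 0.72 in VPA 391, 392 and 393 and 0.12, -0.24 and -0.44 in controls 401, 402 and 408. As APLN was chosen for its higher VPA values and the markers differed little between the groups, this restates the same difference on another scale. For VEGFA the same quantity averaged 0.93 ± 0.041 in VPA and 1.35 ± 0.33 in controls, for FLT1 2.01 ± 0.21 and 1.79 ± 0.024, and for ANGPT1 -0.84 ± 0.17 and -0.39 ± 0.35 (SD, n = 3 each). In these 3 of the 8 genes the groups did not overlap on this scale, as in 12.4% of all tested genes, with the two-sided exact permutation p at its smallest possible value of 0.10 and 0.27 after adjustment over 8 genes. In the other 5 the exact permutation p was 0.40 to 0.90.

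**Figure D4:**
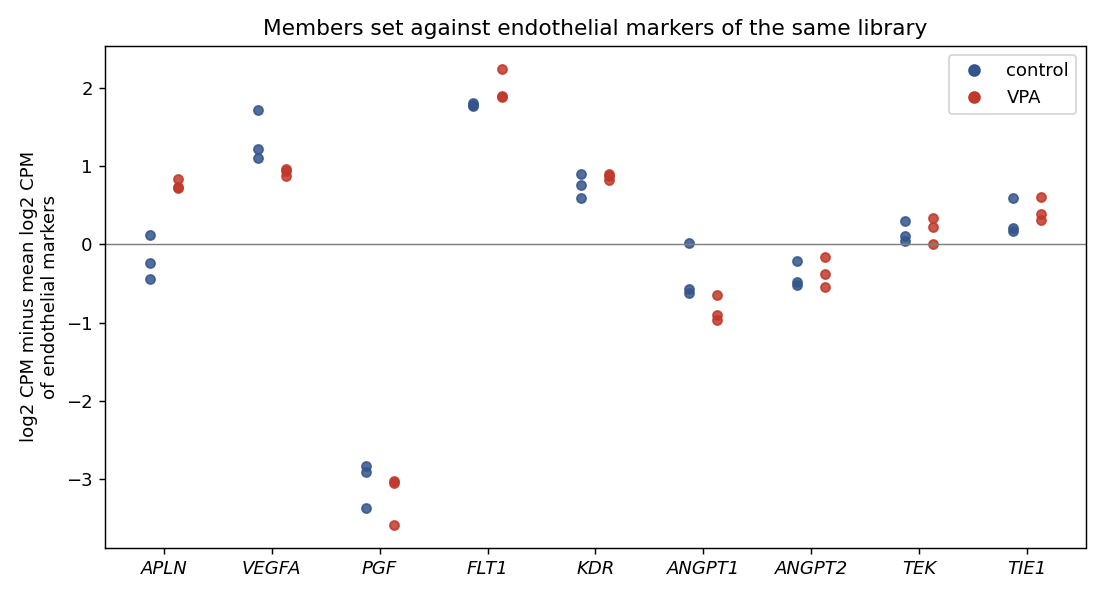
Log2 CPM of each member minus the mean log2 CPM of 15 endothelial markers in the same library (vertical axis), with controls in blue and VPA animals in red, 1 point per library. APLN lies at 0.72 to 0.84 in VPA and -0.44 to 0.12 in controls, while KDR, ANGPT2, TEK and TIE1 overlap between the groups.

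Genes of sprouting vessels and other angiogenic signals were also compared, with 0 called by edgeR in either list. At an unadjusted p of 0.05 edgeR had 2 genes in each (16.1% of all tested genes), and DESeq2 called 1, UNC5B (3.14% of all). Of 14 Notch and tip cell genes 7 were positive and 7 negative, with a median of -0.00057. UNC5B, a netrin receptor of tip cells and neurons, had 59.8, 72.1 and 74.0 CPM in VPA 391, 392 and 393 and 51.0, 40.9 and 50.6 CPM in controls 401, 402 and 408. Its groups did not overlap and it did not pass over all genes (log2 fold change 0.52 ± 0.10 SE, edgeR adjusted p = 0.062). NOTCH4, an endothelial Notch receptor, had one of 0.39 ± 0.13 (adjusted p = 0.18). ESM1, a tip cell gene, averaged 1.14 ± 0.259 CPM under VPA and 1.34 ± 0.077 in control animals. DLL4, the tip cell Notch ligand, was not among the 2 lowest p values of its list. It had 9.61 CPM in control 402 and 4.89 to 6.78 in the other libraries. Of 24 other angiogenic ligands and receptors 19 were positive, with a median of 0.06, or 0.10 without VPA 391 and 0.04 without control 408. Lowest in p were the growth factor receptor genes FGFR1 (0.20 ± 0.068, adjusted p = 0.19) and MET (0.45 ± 0.19, adjusted p = 0.27).

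**Figure D5:**
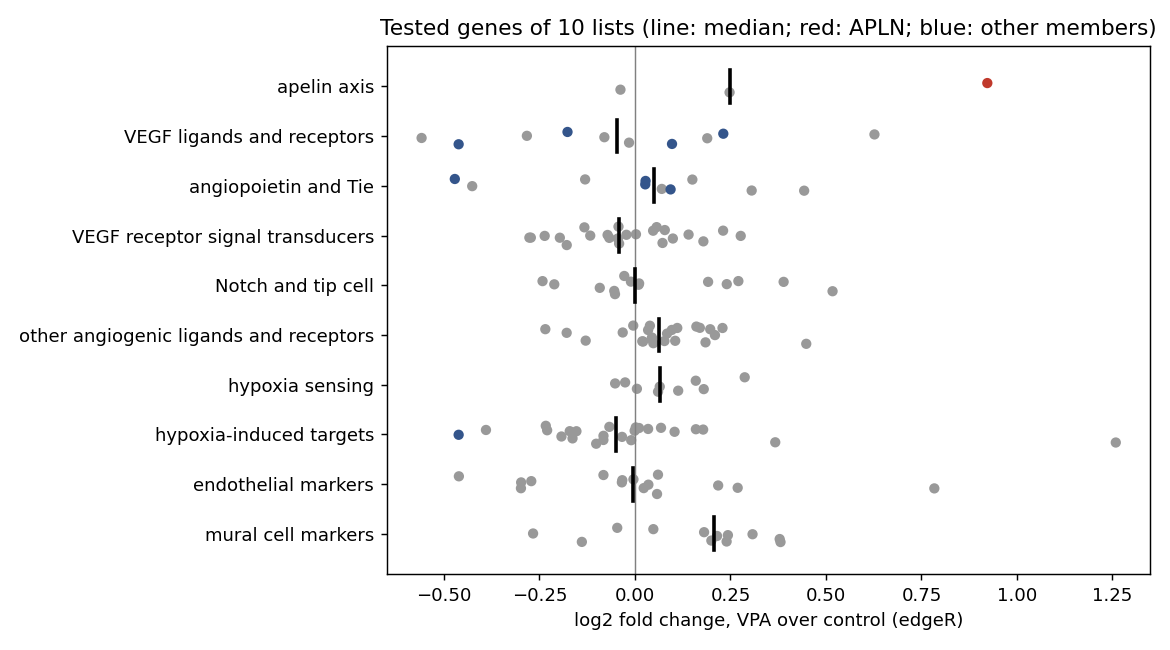
Log2 fold change of VPA over control (horizontal axis) of each tested gene in 10 gene lists, with the list's median as a black line, APLN in red and other members in blue. APLN, which was chosen by this difference, lies at 0.92, apart from FURIN and MME, the only other tested genes of its list. The medians of the VEGF, angiopoietin, Notch and endothelial lists lie between -0.05 and 0.05.

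Marker lists of other cell types differed between the groups to different degrees. Mural cell markers were positive in 9 of 12 (median 0.21, summed CPM 313 to 423 in VPA and 296 to 329 in controls). The median was 0.07 without VPA 392, the library with the sum of 423 CPM. Among the mural genes MYH11 had a log2 fold change of 0.31 ± 0.079 SE (edgeR adjusted p = 0.10) and ACTA2 one of 0.38 ± 0.13 (adjusted p = 0.18). Oligodendrocyte markers were positive in 11 of 11 (median 0.32, summed 16965 to 19112 and 13041 to 17510 CPM) and astrocyte markers in 7 of 9 (median 0.18, 9950 to 11406 and 9426 to 10256 CPM). Glutamatergic neuron markers were negative in 7 of 8 (median -0.16, 5605 to 5796 and 5908 to 6071 CPM). Fibroblast and meningeal markers were positive in 4 of 8. None of the genes in these lists was called by edgeR. At an unadjusted p of 0.05 it had 2 of 12 mural, 8 of 11 oligodendrocyte, 5 of 9 astrocyte, 6 of 8 glutamatergic and 1 of 8 fibroblast or meningeal genes, against 16.1% of all tested genes. DESeq2 called 0, 4, 2, 3 and 0 in these lists, against 3.14% over all genes. Striatal projection neuron markers had the largest median, 1.04, or 0.47 without VPA 393, and 9 of 10 were positive. Of these 10, edgeR called 0 and had 7 at an unadjusted p of 0.05, and DESeq2 called 2. Red blood cell markers, with 3 tested and 0 called by either, had a median of 0.91. It ran from 0.41 without control 401 to 2.70 without control 402. The part of all these lists in the higher APLN and lower VEGFA values was not tested.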

How the data were processed

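Cortical RNA of 6 pigs, 3 per group, was sequenced. Per the labels' protocols, TRIzol served for extraction and the VAHTS Universal V6 kit for libraries. Not given in the sources used here: aligner, counter, strandedness, build and annotation. Thus reads shared by overlapping or near-identical genes cannot be separated and no coordinates are printed.

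The authors deposited raw counts and FPKM per gene, per the file headers and names. All 97071 nonzero FPKM values equalled the count over the library total and a gene length constant across libraries (relative tolerance 0.001). CPM were computed here from file totals. Of 17201 names, 24 had become dates, which stayed in library sizes. All pairs of libraries differed by more than sampling noise (chi-square per degree of freedom 5.88 to 13.2 over 15 pairs).

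Counts were fitted over all genes in R 4.3.3 with edgeR 4.0.16 (filterByExpr, TMM, glmQLFit, glmQLFTest, no covariate, Benjamini-Hochberg), and the functions were tested on simulated data. Intervals are 95% intervals from the fit, and standard errors come from the F statistic. Likeness was computed on log2 CPM (prior count 2), ratios with a prior count of 0.5 and two-sided exact permutation tests. P-values measure the spread between these 6 animals, whose litters are not given. Alternatives were other scalings and filters, DESeq2 1.42.0, limma 3.58.1 (voom; trend on log2 of FPKM plus 1 or 0.1), EIF1AY as a covariate and leaving out libraries.

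Members and lists were chosen with earlier results of these data known. By rule, the named genes are the members, the called genes of each list or else its 2 lowest p values, and PECAM1, CDH5 and CLDN5. The 5 genes most like APLN and KDR by each measure are added. Genes of cell type lists that bear on no member are left out. Named outside this rule, among others, are EIF1AY, APELA, VEGFB, PTPRB, HIF1A, ESM1, DLL4 and the genes marked as named after their values were seen. Lists of precursor cells, microglia, interneurons, choroid plexus and leukocytes were also computed, with medians of 0.21, 0.06, 0.10, 0.12 and 0.64. With a library left out, these ran from 0.15 (VPA 392) to 0.29 (control 401), -0.05 (control 408) to 0.15 (control 402), 0.02 (VPA 393) to 0.11 (control 402), -0.05 (control 408) to 0.22 (control 401) and 0.11 (VPA 392) to 0.85 (VPA 391). The leukocyte median rests on 3 tested genes of 8, and that list summed to 4.25 to 7.74 CPM in VPA and 4.32 to 4.98 in controls. In the same order of lists, edgeR called 0, 0, 0, 1 and 0 genes, against 0.362% of all. It had 5 of 8, 1 of 9, 0 of 8, 2 of 7 and 0 of 3 at an unadjusted p of 0.05, against 16.1%. DESeq2 called 2, 0, 0, 1 and 0, against 3.14%. Of all list genes, 10 were not analysed here. Some genes that the naming rules would give are not reported here.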

Additional observations from a re-analysis of the deposited data

How the results depend on the processing

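No paired analysis was possible because the groups share no replicate numbers. The log2 fold change of APLN, the difference that chose the gene, ran from 0.80 to 1.06 over 18 alternatives, and its sign there is no support. Among the other 8 members, edgeR, limma-voom and limma on FPKM called 0 under every setting, and DESeq2 called 1, VEGFA. VEGFA, FLT1 and ANGPT1 kept their direction in all 18. The near-zero differences did not: with a library left out, the log2 fold change ran from -0.33 to 0.025 for PGF (positive without VPA 391), -0.037 to 0.10 for ANGPT2 (negative without VPA 391 and without control 408), -0.073 to 0.13 for TEK (negative without VPA 393, control 401 or control 408), -0.020 to 0.27 for TIE1 (negative without VPA 393 and without control 401) and -0.0041 to 0.20 for KDR (negative without control 401). Over the 4 libraries with EIF1AY counts, chosen after seeing the data, it was -0.029 for KDR and -0.024 for TIE1. FLT1 kept its sign there but was also near 0, at 0.020, and it was 0.048 without VPA 392. The number of genes called in all was 52, and 45 to 62 with RLE, upper quartile or no scaling factors, a mean of at least 1 CPM as the filter, or EIF1AY as a covariate. It was 141 with no filter, 435 with DESeq2, 30 with limma-voom, 2 with limma on log2(FPKM + 1) and on log2(FPKM + 0.1), 1 without a filter on FPKM and 0 over those 4 libraries. It was 0 without VPA 391 or VPA 392, 1 without VPA 393, 66 without control 401, 5 without control 402 and 2 without control 408. The cause was not tested. At an unadjusted p of 0.05, edgeR had 1897, 1719 and 1919 genes without VPA 391, without VPA 392 and over the 4 libraries. Of 273 list medians under alternatives 258 moved by less than the spread between replicates. All 91 ratios did so too, but for those with a library left out this was fixed in advance. Leaving out 1 of 3 libraries cannot move a mean log2 ratio by as much as that spread, so this is no support. Depth limited PGF most.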
